A study of Homo sapiens with 4 samples.

Results

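Heat shock proteins and J-domain co-chaperones were followed as one set of protein-coding genes, taken by symbol: HSPA, HSPB, HSPD, HSPE or HSPH and a number, HSP90, or DNAJA, DNAJB or DNAJC and a number. Symbols with a hyphen were left out. The rule found 72 genes, 28 HSP and 44 DNAJ genes, of 19041 protein-coding genes in a table of 51740 rows. RNA had been sequenced from wildtype HEK293T cells, an established line of human embryonic kidney origin with the large T antigen of SV40, after formaldehyde crosslinking and separation into a nuclear and a cytoplasmic fraction. Each fraction had 2 biological replicates, and each of the 4 libraries was made with a stranded kit that removes ribosomal RNA, starting from 400 ng, and read for 100 nt from both ends. All libraries came from the same cell line under the same crosslinking, and the groups differed only by fraction.

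The value described here is the authors' mean normalized count of a gene over the 4 libraries, which pools both fractions and counts reads in exons and introns. It has no value per library and so no spread between replicates, and differences between fractions were not analysed here. The mean gives both fractions the same weight, whatever RNA each held in the cell, and is therefore not an amount per cell. Fewer cells with a transcript and less RNA per cell cannot be told apart in such bulk RNA. To compare genes, the mean was divided by the length of all annotated exons of the gene, and this value is called the level, in normalized counts per kb of exonic length. The exons are those of GENCODE 44, while the authors counted on an annotation derived from an earlier release. They had also taken out stretches that hold more than 1 gene. Exons in such stretches may add length without counts, so the level of an overlapped gene may be too low. Since intronic reads are in the counts, a gene with many of them has a higher level than its exons alone would give. Intervals are 95% exact Poisson intervals on the lowest number of counts that the mean allows, or, for the low genes whose mean fits only 1 total of counts, on that total, and they cover counting error only.

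HSP70 chaperones bind short hydrophobic stretches of unfolded proteins in a cycle of ATP binding and hydrolysis. J-domain proteins deliver substrates to HSP70 and trigger the hydrolysis of its ATP, and nucleotide exchange factors then open HSP70 for another round. HSP90 acts on clients that are nearly folded, HSP60 with HSP10 encloses proteins in mitochondria, and small heat shock proteins hold unfolded proteins without using ATP. Many cells make some members at all times and others only under stress or in the testis or muscle.

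Nearly all of these genes were detected. All 28 HSP genes and 43 of the 44 DNAJ genes had a mean above 0, where 89.9% of protein-coding genes did. A mean normalized count over 50 was reached by 20 HSP genes (71.4%) and 35 DNAJ genes (79.5%), against 63.7% of protein-coding genes. A mean over 500 was reached by 17 HSP and 29 DNAJ genes, 60.7% and 65.9%, against 43% of protein-coding genes. The genes nearest to the minimum of 50 were DNAJB5 at 49.3 and HSPA1L at 43.2 below it, and HSPA2 at 89.1 and HSPB8 at 114 above it.

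**Figure D1:**
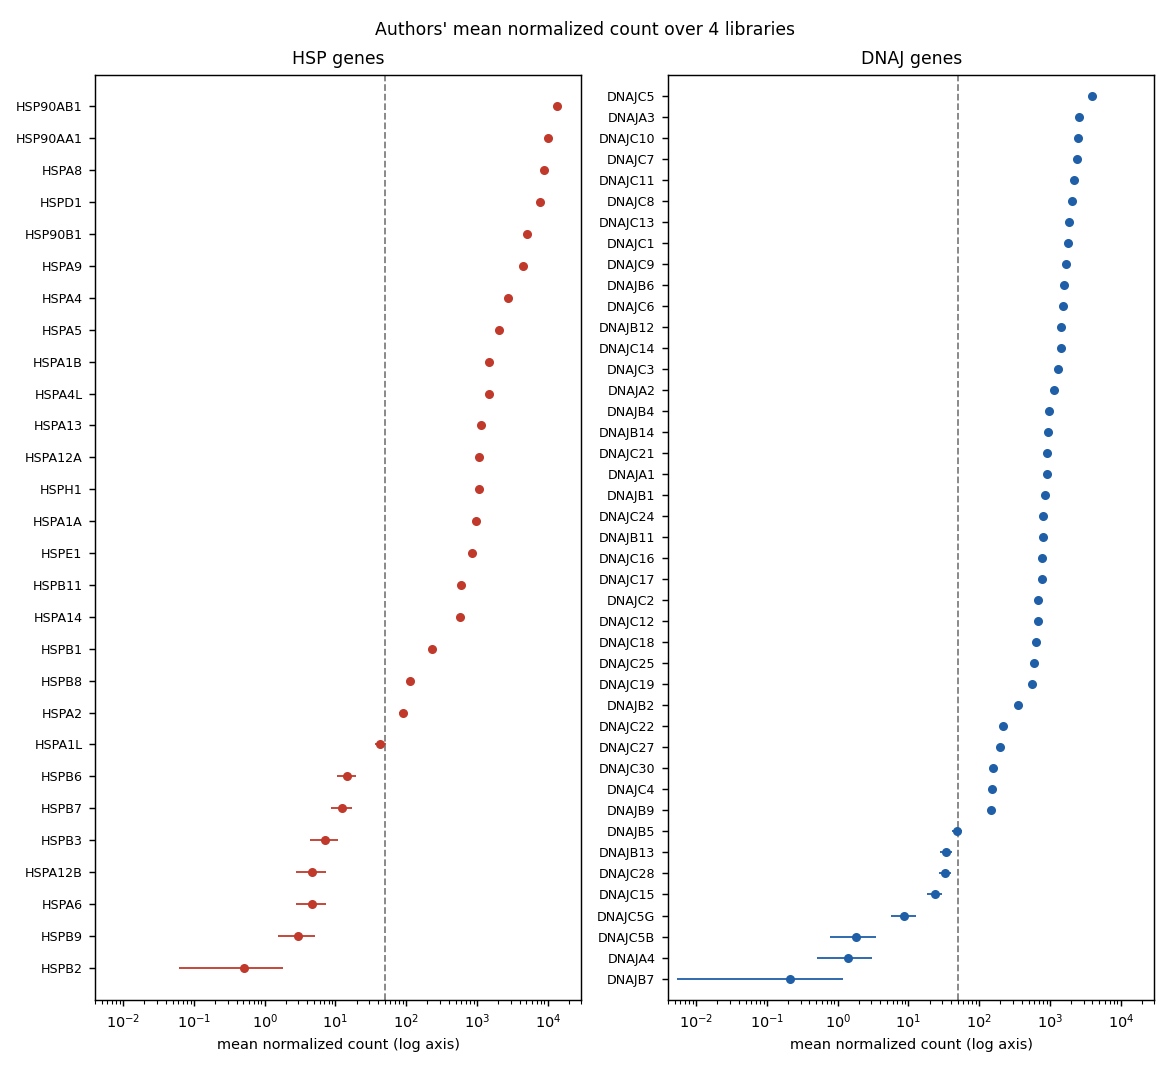
Authors' mean normalized count over 4 libraries of each HSP gene (left) and DNAJ gene (right) on a log axis, with bars for the 95% counting interval and a dashed line at 50. HSP90AB1 was highest at 13449, the HSP genes spread more widely at the top than the DNAJ genes, and DNAJB8, listed at 0, is not drawn.

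The median level was 170 in the 28 HSP genes and 101 in the 43 DNAJ genes with a mean above 0, a ratio of 1.68, beside 82.0 over protein-coding genes with a mean above 0. No test was made of this ratio, because genes are not replicates and the table gives no value per library. Its size depended on which genes entered it, and among genes with a mean over 50 the medians were 347 and 136, a ratio of 2.56. The HSP levels were spread more widely, with quartiles of 14.4 and 460 against 55.9 and 232 in DNAJ genes with a mean above 0. The lower HSP quartile thus lay below that of the DNAJ genes. Above the median of protein-coding genes lay 17 of 28 HSP and 27 of 43 DNAJ genes with a mean above 0, and above their 75th percentile 13 and 13. Above their 90th percentile, a level of 458, lay 8 HSP and 4 DNAJ genes, and above their 95th, a level of 733, lay 4 HSP and 0 DNAJ genes.

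HSP genes together held 0.275% of all normalized counts and DNAJ genes 0.179%, so that the HSP total was 1.54 times that of the DNAJ genes. The HSP counts lay in few genes. HSP90AB1, HSP90AA1 and HSPA8 held 50.8% of the HSP total, and the top 5 genes held 70.6%. In the larger DNAJ group the top 3 genes, DNAJC5, DNAJA3 and DNAJC10, held 21.8% of the total, and the top 5 held 32.8%.

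**Figure D2:**
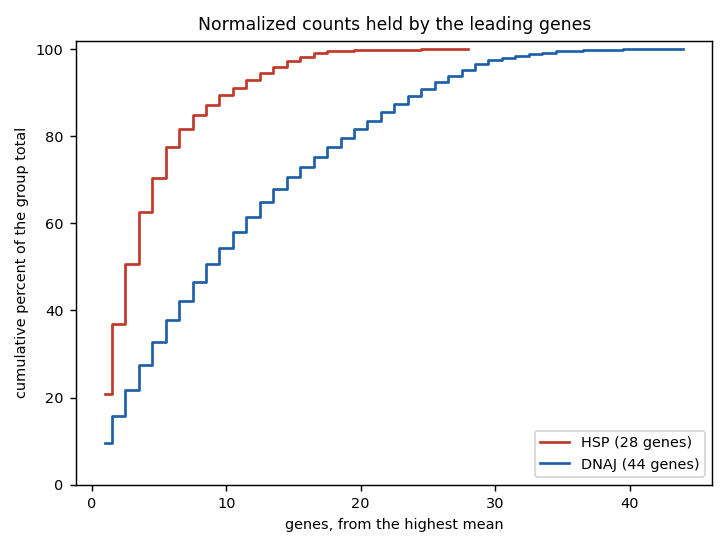
Cumulative percent of the total normalized counts of the 28 HSP genes and of the 44 DNAJ genes, with genes on the horizontal axis from the highest mean to the lowest. The HSP line reaches 50.8% after 3 genes, where the DNAJ line stands at 21.8%.

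The HSP90 genes led the set. HSP90AB1, the constitutive HSP90 of the cytosol (ENSG00000096384, chromosome 6, 44246166 to 44253888, plus strand, hg38), had a mean normalized count of 13449 (interval 13318 to 13580). Its level of 4513 lay at percentile 99.4 of protein-coding genes. HSP90AA1, the stress-inducible form in the cytosol (chromosome 14, 102080742 to 102139699, minus strand), followed with a mean of 10254 and a level of 2012. HSP90B1, the form of the endoplasmic reticulum also known as GRP94, had a mean of 5043 and a level of 385. The ratio of HSP90AB1 to HSP90AA1 was wider in level than in mean because the annotated exons of HSP90AA1 are longer, at 5.10 against 2.98 kb. TRAP1, the HSP90 of mitochondria, has another kind of symbol and stood at a mean of 7679 and a level of 1481.

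The 14 HSP70 genes, taken by the symbol HSPA, had a median level of 251 and ran from HSPA12B at the low end to HSPA8. They include HSPA4 and HSPA4L, which are of the HSP110 type. HSPA8, the constitutive HSP70 of the cytosol (chromosome 11, 123057489 to 123063230, minus strand), had a mean of 8997 (interval 8890 to 9105) and a level of 1855, at percentile 98.6. The forms of other compartments came below it. HSPA9, the mitochondrial HSP70, had a mean of 4510 and a level of 461. HSPA5, known as BiP in the endoplasmic reticulum, had a mean of 2023 and a level of 310. HSPA13, a distant relative in the same compartment, stood at 1126 and a level of 271.

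HSPA4, an HSP110-type exchange factor, had a mean of 2723 and a level of 537. Its relatives HSPA4L and HSPH1 had means of 1459 and 1055 and levels of 128 and 126. The counting intervals of these levels overlapped, while those of the means did not. HSPA14, which binds ribosomes, was at a mean of 578 and a level of 231. HSPA12A and HSPA12B, which are atypical members, differed widely, with means of 1083 and 4.69.

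The stress-inducible pair HSPA1A and HSPA1B was well covered in these cells, which had no labelled heat treatment. HSPA1A (chromosome 6, 31815543 to 31817946, plus strand) had a mean of 982 and HSPA1B (chromosome 6, 31827738 to 31830254, plus strand) of 1477. Their split is uncertain, as 72.4% of the 100-base windows of the HSPA1A transcript and 68.9% of those of HSPA1B occur identically in the other gene. How reads that fit both genes were counted is not given in the sources used here. If they were left out, the means and levels of both genes are too low. HSPA6, an inducible form that is near silent in unstressed cells, had a mean of 4.62, which corresponds to 18 counts over the 4 libraries, and shared 27.8% of its windows with HSPA7. HSPA2 and HSPA1L, best known from the testis, stood at 89.1 and 43.2, with levels of 16.2 and 15.7.

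In mitochondria HSPD1, or HSP60, works with HSPE1, or HSP10. HSPD1 had a mean of 7714 and a level of 1011, at percentile 96.9. HSPE1 had a mean of 838 and a level of 460. The 2 genes share a locus, with HSPE1 (chromosome 2, 197500140 to 197503449, plus strand) lying wholly within the annotated span of HSPD1 on the opposite strand, and the authors had taken stretches with more than 1 gene out of their annotation before counting. Whether this removal reached the opposite strand is not given in the sources used here, so the count of HSPE1 is uncertain. In addition, 11.6% of its windows occur in transcripts of its pseudogenes.

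Small heat shock protein genes were the lowest family, with a median level of 9.50 and 3 of 8 over the minimum of 50. HSPB11, an intraflagellar transport protein that carries the family's symbol, was the highest at a mean of 598 and a level of 199. HSPB1, or HSP27, had a mean of 229 (interval 212 to 247). HSPB8, a partner of BAG3, stood at 114. The other members, known from muscle, heart or testis, had few counts. HSPB6 had a mean of 14.6, HSPB7 of 12.4, HSPB3 of 7.16, HSPB9 of 2.96 and HSPB2 of 0.503. The last mean corresponds to 2 counts in all.

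**Figure D3:**
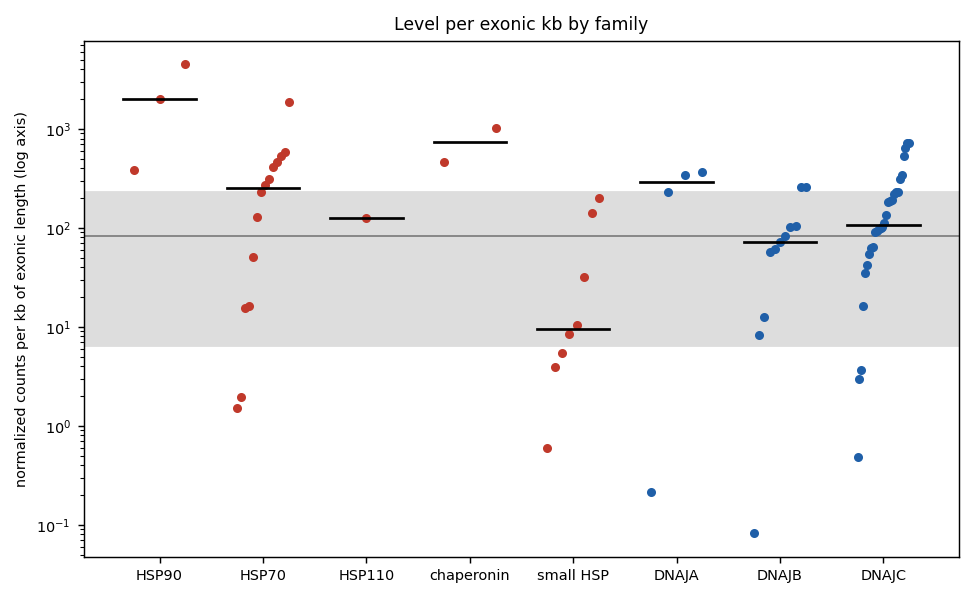
Normalized counts per kb of exonic length (log axis) of each gene with a mean above 0, by family, with a black line at the family median. Families follow the symbols, so HSPA4 and HSPA4L stand with HSP70, and HSP110 holds HSPH1 alone. The grey band spans the middle quartiles of protein-coding genes, 6.35 to 228, with a line at their median of 82.0, and the medians run from 9.50 in the small HSP genes to 2012 in the HSP90 genes.

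Class A J-domain proteins have the full layout of bacterial DnaJ, and 3 of the 4 genes were well covered. DNAJA3, the mitochondrial member, had a mean of 2581 and a level of 365. DNAJA1 and DNAJA2, both cytosolic, had means of 919 and 1155 and levels of 345 and 233. DNAJA4 stood at a mean of 1.41, or 6 counts over the 4 libraries.

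Of the 12 class B genes, 11 had a mean above 0, with a median level of 72.8. DNAJB4, a cytosolic member, and DNAJB12, which sits in the membrane of the endoplasmic reticulum, had levels of 261 and 260, whose counting intervals overlapped. DNAJB6, which holds back protein aggregation, had the highest mean of the class, 1576, but a level of 105. DNAJB1, the inducible HSP40 of the cytosol, had a mean of 846 and a level of 103. DNAJB11, a partner of BiP, followed at a mean of 786 and a level of 83.8. The lowest genes with counts were DNAJB13, a protein of cilia and flagella, at a mean of 34.4, DNAJB5 at 49.3 and DNAJB7, best known from the testis, at 0.210. DNAJB7 had 1 count in all. DNAJB8, also of the testis, was at 0, where a limit of 3 counts over the libraries allows a mean of up to 0.994.

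Class C holds proteins that share only the J domain, and its 28 genes had a median level of 107. Of these, 24 had a mean over 50. DNAJC1, an endoplasmic reticulum membrane protein (chromosome 10, 21756548 to 22003769, minus strand), had the highest level of all DNAJ genes, 724, from a mean of 1802. DNAJC8, found with the spliceosome, was at a level of 717, and the counting intervals of both levels overlapped. DNAJC5, the cysteine string protein of secretory vesicles, had the highest mean of the DNAJ genes, 3993 (interval 3922 to 4065), and a level of 642. DNAJC9, a co-chaperone of histones H3 and H4, was at a mean of 1701 and a level of 529, and DNAJC14, of the endoplasmic reticulum membrane, at a mean of 1427 and a level of 341. At the low end, DNAJC5B and DNAJC5G, relatives of DNAJC5, had means of 1.79 and 8.66, and DNAJC15, a protein of the mitochondrial inner membrane, had 23.8.

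Some J-domain genes carry other symbols. SEC63, which opens the way of proteins into the endoplasmic reticulum, had a mean of 3660 and a level of 425. GAK, which uncoats clathrin vesicles, had a mean of 2763 and a level of 182. HSCB, which serves iron-sulfur cluster assembly, stood at a mean of 299 and a level of 206. With these 3 genes added to the DNAJ genes with a mean above 0, the median level was 104.

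The order of levels was tight in its middle. Among the 55 genes with a mean over 50 there were 54 neighbouring pairs, and in 32 of these the counting intervals overlapped. The first 5 places, HSP90AB1, HSP90AA1, HSPA8, HSPD1 and DNAJC1, were separated by more than the counting intervals. The spread between libraries is not known.

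HSP genes were compact, with a median span of 9.0 kb against 32.5 kb for DNAJ genes, and 2.04 against 5.06 times their exonic length, where protein-coding genes had medians of 32.3 kb and 6.43, all over genes with a mean above 0. Per kb of span, introns included, the median was 31.6 in HSP and 20.6 in DNAJ genes, a ratio of 1.54. DNAJC1, whose span is 247 kb, was 5th of the 72 genes by level and 55th by count per kb of span. HSPA1A and HSPA1B, which have a single exon, were 13th and 8th by level and 4th and 3rd per kb of span. In all 8 of the 72 genes had a single-exon canonical transcript, 6 of 28 HSP and 2 of 44 DNAJ genes, and 4 of these 8 had a mean over 50. Of protein-coding genes, 950 of 19041 had such a transcript.

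Per kb of the canonical transcript, the one that the annotation picks for each gene, the medians were 290 and 240, a ratio of 1.21. By this measure HSPA8 rose from 3rd to 2nd place and HSPD1 from 4th to 3rd, while HSP90AB1 kept the first. DNAJC7, a partner of HSP70 and HSP90 with 12.9 kb of annotated exons but a canonical transcript of 1.81 kb, moved from 30th to 7th, and was then the highest DNAJ gene at 1335 per kb. DNAJC8 followed at 1176 and DNAJA3 at 956.

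**Figure D4:**
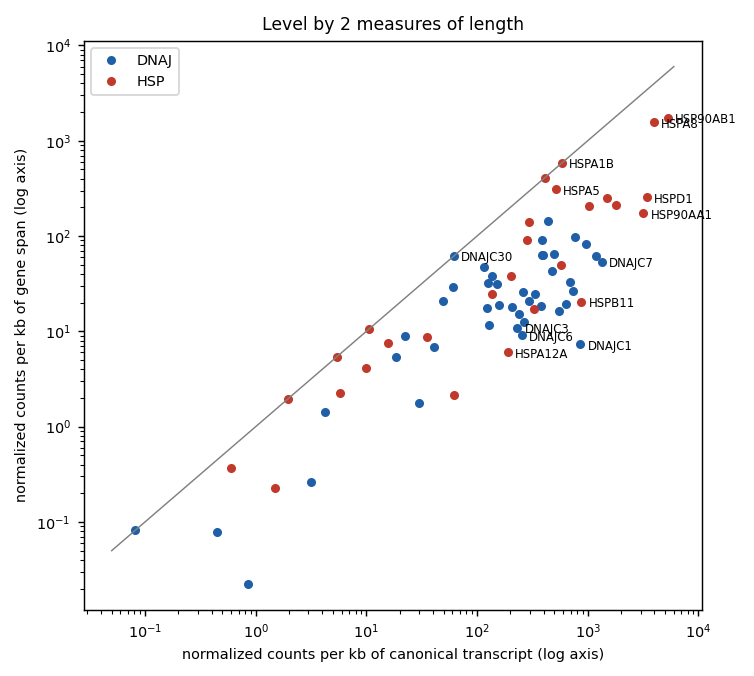
Normalized counts per kb of gene span against normalized counts per kb of canonical transcript, both on log axes, for the HSP and DNAJ genes with a mean above 0, with a line where both are equal. Single-exon genes such as HSPA1B and DNAJC30 lie on the line, and DNAJC1, at 858 per kb of transcript and 7.29 per kb of span, lies far below it.

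Reads of near-identical copies cannot always be told apart. Of the 72 genes, 56 had no 100-base window in common with a transcript of another locus, and 8 shared over 5% of their windows. The pseudogenes of the families themselves held few counts. Among the 57 HSP pseudogenes listed, 29 had a mean above 0 and 0 a mean over 50, and they held 0.145% of the counts of HSP genes and pseudogenes together. Among the 26 DNAJ pseudogenes, 6 had a mean above 0, with 0.0264% of the counts. The highest of each were HSPD1P4 at 20.5 and DNAJB6P1 at 8.36. How reads that fit a gene and its pseudogene were counted is not given in the sources used here, so these means may be too low. The same counts over all pseudogenes of the table were not taken.

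**Figure D5:**
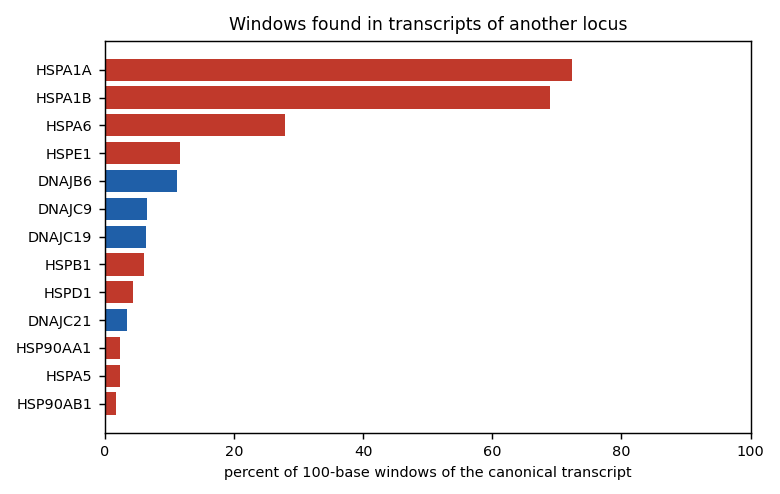
Percent of the 100-base windows of each gene's canonical transcript that occur identically in an annotated transcript of another locus, for the genes above 1%, with HSP genes in red and DNAJ genes in blue. HSPA1A at 72.4% and HSPA1B at 68.9% stand far above the rest, followed by HSPA6 at 27.8%.

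Exons that lie within another gene are a second limit. In the annotation used here, 14 of the 72 genes had over 50% of their exonic length within the span of another gene on either strand, and 9 of these had a mean over 50. Among these 9 were HSP90B1, HSPE1, DNAJB1, DNAJB4, DNAJB11 and DNAJC9. In DNAJB4 the share within genes of its own strand was 90.1%. Those of the 14 with a mean at or below 50 were HSPB2, HSPB6, DNAJB7, DNAJB8 and DNAJB13. Whether the removal of overlapping stretches lowered their counts was not tested.

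The promoters were searched for the heat shock element, the DNA site of the heat shock factors, to set the members' levels beside it. The letters GAANNTTCNNGAA were looked for on both strands, where matches may overlap each other. The window was the 300 bases around the first listed RefSeq start of each gene (250 before, 50 after, GRCh38.p14). Promoters of 64 members were listed, and 2 of 24 HSP (8.33%) and 2 of 40 DNAJ promoters (5%) held a match, against 52 of 14897 promoters of protein-coding genes of the table (0.349%) and 0.487% of all 27305. The matches upstream of the start are shown with the motif in capitals, so that they can be read beside the levels of their genes.
HSPA8: gcgagcttGAAAGTTCCAGAAcgctgcggt
DNAJB6: agagccgaGAACCTTCGCGAAggtggggcg
HSPA6: cggaaaggTTCGCGAAAGTTCgcggcggcg

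The start here is that of RefSeq, which can differ from the gene start in the annotation used for the levels. The stretches of HSPA8 and DNAJB6 lie inside the annotated gene spans, 123057489 to 123063230 and 157335381 to 157417439. The HSPA8 stretch is chr11:123062345-123062374 on the minus strand and its match begins 230 bases before the RefSeq start, with 2 matches in the window. That of DNAJB6 is chr7:157336865-157336894 on the plus strand, with the match 131 bases before the start, and that of HSPA6 is chr1:161524458-161524487 on the plus strand, with the match 74 bases before it. DNAJA1 had its match after the start. The 4 genes had levels of 1855 for HSPA8, 345 for DNAJA1, 105 for DNAJB6 and 1.96 for HSPA6. HSPA1A, HSPA1B, HSP90AA1 and DNAJB1, named above as inducible, had 0 matches in their listed promoters. A match is a string of letters and was not tested for binding. Looser forms of the element, and any other starts of a gene, were not searched.

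The partners of these chaperones were well covered. All 11 nucleotide exchange factors listed had a mean over 50, where 63.7% of protein-coding genes did, with a median level of 234. They ran from BAG1, a cytosolic exchange factor, at a level of 75.4 to BAG6, a chaperone of tail-anchored membrane proteins, at 817. All 13 co-chaperones of HSP90 and HSP70 had a mean over 50 as well, with a median level of 607, from CHORDC1 at 76.4 to STUB1, a ubiquitin ligase that works with HSP70 and HSP90, at 1589. The heat shock factors HSF1, HSF2 and HSF4, of which HSF1 is the main driver of the stress response, had a median level of 281, from HSF4 at 32.8 to HSF2 at 483. The 8 subunits of the cytosolic chaperonin, which folds actin and tubulin, had levels from 1219 for CCT2 to 4245 for CCT3, and all of these lay above the highest DNAJ gene, DNAJC1 at 724.

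The lists by compartment do not hold every gene of a compartment, and leave out TRAP1, DNAJB12 and DNAJC14. The 10 mitochondrial genes listed had a median level of 194, from 2.96 for DNAJC15 to 1011 for HSPD1. The 10 listed genes of the endoplasmic reticulum had a median of 290, from 57.2 for DNAJB9, a J-domain protein induced by unfolded proteins, to 724 for DNAJC1.

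Genes known to be made in the line were looked up as markers. All 7 such genes had a mean over 50, which 63.7% of protein-coding genes reached, from PAX2 at 63.1 to VIM at 18261. PAX2 and LHX1, at levels of 9.59 and 49.8, lay below the median level of protein-coding genes, 82.0. Of 6 genes of other cell types, PTPRC, CD3E, HBB, ALB and PECAM1 had means from 0.293 to 6.22. COL1A1, a collagen of fibroblasts, had 213, above PAX2. The size factors implied by the lowest means of the table ran from 0.755 to 1.34 over the 4 libraries, so that 1 count was worth 0.186 to 0.331 in the mean of a gene. The mean of HSPA2, 89.1, thus stands for at least 268 counts in all.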

How the data were processed

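RNA was measured in 2 nuclear and 2 cytoplasmic libraries of HEK293T cells, grouped by the labelled fraction. The authors aligned the reads to hg38 with STAR, counted them with featureCounts 2.0.2 over exons and introns, after taking overlapping stretches and readthrough transcripts out of the annotation, and normalized them with DESeq2. The deposited table holds the authors' mean normalized count, a signal over all 4 libraries. It also holds 5 columns of the authors' own comparison of the fractions (fold change, standard error, statistic, p-value, adjusted p-value), which were not used. With no count per library, the intended count test between fractions was not run, and no p-value is given. Library totals are not given in the table. Steps among the lowest means gave the size factors, a step tested on simulated data.

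Members were matched by identifier to GENCODE 44 on hg38 (72 of 72), and 99.8% of protein-coding rows had a match. Promoters came from RefSeq. Python 3.11.15 with pandas 2.3.3 and scipy 1.17.1 was used. Every HSP gene above 0 was named, and in each DNAJ class the highest 5 and lowest 3 by level, those at 0, those nearest the minimum, and the ends of each other list. DNAJC7, DNAJC10 and DNAJC30 were picked outside it, with their values known. Members and lists were chosen with earlier results of these data known. The promoter motif and the shared windows were chosen after the data were seen. Protein features were not analysed here, and 1 J-domain gene with another symbol is not reported here.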

Additional observations from a re-analysis of the deposited data

How the results depend on the processing

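The HSP median stayed above the DNAJ median under every alternative run, though the ratio moved. This holds for the medians only, as the lower quartile of level was 14.4 in HSP and 55.9 in DNAJ genes. Per kb of gene span, the medians were 31.6 and 20.6 (ratio 1.54). With no length they were 910 and 786 (1.16), and among genes with a mean over 50 they were 347 and 136 (2.56). Without HSPA1A and HSPA1B the HSP median was 134 (1.33). With DNAJB8 at 0 included the ratio was 1.68. Chosen after the data were seen, the canonical transcript gave 290 and 240 (1.21), and leaving out genes with shared windows or overlaps gave a ratio of 1.65. The HSP share of counts was 0.326% of protein-coding rows, 0.218% without HSP90AB1 and 0.265% without HSPA1A and HSPA1B. The DNAJ share was 0.212% of protein-coding rows, 0.161% without DNAJC5 and, in a setting chosen after the data were seen, 0.207% with SEC63, GAK and HSCB added. Counts of genes over the minimum stayed within 1.5 times at minima of 10 and 500. Division by protein length was not run. No paired analysis was possible because the table holds no value per library, and for the same reason no replicate could be left out, so whether 1 library decides a value is not known.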
